A study of Rattus norvegicus with 6 samples.

Results

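The genes described here encode the translation initiation factors (eIF) and elongation factors (eEF) of rat cells, with the enzymes that methylate eEF1A and share its symbol stem. They were chosen by gene symbol alone, as rows whose symbol begins with Eif or Eef followed by a digit from 1 to 6. Left out were the kinases and binding proteins named after a factor and, because it shares the stem of Eef2k, the methyltransferase gene Eef2kmt. This choice gave 51 of the 30498 genes in the count table. The family itself was picked with the counts of the 6 libraries in view, so every difference below, and every count of genes past the threshold, is a description of these libraries and supports nothing further. The libraries were 3 of rcMSC, wild-type rat mesenchymal stem cells from cranial bone marrow, and 3 of rbMSC, wild-type mesenchymal stem cells from the marrow of femurs and tibias. The series, which by its title concerns transplantation of cranial cells in experimental spinal cord injury, sets rcMSC against rbMSC. The labels give no age, sex, passage or treatment. They also do not say whether replicate libraries represent different animals or cultures.

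Translation begins when eIF2 carries the initiator tRNA to the small ribosomal subunit, while eIF3, eIF1 and eIF1A hold that subunit ready and eIF4F (the cap-binding eIF4E, the scaffold eIF4G and the helicase eIF4A) brings in the mRNA. eIF2B recharges eIF2 with GTP, and it is the step blocked when eIF2 is phosphorylated under stress. In elongation eEF1A delivers aminoacyl-tRNA, the eEF1B subunits recharge eEF1A, and eEF2 moves the ribosome along the mRNA. Many of these mRNAs, those of the elongation factors above all, begin with a run of pyrimidines called a 5′ terminal oligopyrimidine tract, through which mTOR and LARP1 control their translation in mammals.

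Because that tract is the sequence feature best known for these genes, the 100 bases around the annotated start (50 before and 50 after, RefSeq, build GRCr8) were searched on both strands for the string CTTTC and its longer forms with 1 more T (CTTTTC) or with 2 more (CTTTTTC). A promoter entry was found by symbol for 46 of the 51 genes. At least 1 of these strings lay on the gene's own strand in 13 of them (28.3%), against 16.5% of all 33469 promoter entries. Any gene with several entries was counted once among the 46, while the 33469 were counted entry by entry, whether or not the gene was tested. On the other strand the shares were 10.9% of the 46 and 16.3% of all. A string lay on the own strand in 9 of the 27 genes with an entry called higher in rcMSC (33.3%). In those tested and not called it was 3 of 18 (16.7%). Eef2 was not among the genes with a match. Any link between these strings and the level in rcMSC was not tested. Of the 9 genes with an entry that were called higher in rcMSC at 1.5-fold or more, 5 held a string on their own strand. For those 5, a window of 30 bases follows, with the matched string in capitals (for Eef1b2, which had 3 matches, the one nearest the start). Relative to the annotated start, these strings began at base -1 (Eef1a1), 5 (Eef1b2), -16 (Eef1g), 12 (Eif3f) and 9 (Eif3m). That of Eef1a1 was thus the nearest to the start, and the whole string of Eef1g lay before it. The search was set up after the counts had been seen, and a match in letters is not a mapped start site.

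Eef1a1, chr8:88225052-88225081, minus strand: ccttggacgttCTTTTTCgcaacgggtttg
Eef1b2, chr9:72074084-72074113, plus strand: cggtcccggccCTTTTTCtccctcagcgct
Eef1g, chr1:215289788-215289817, plus strand: agccccaccccCTTTCtctgcggaatcacc
Eif3f, chr1:172369062-172369091, plus strand: ctagcctctctCTTTCtcggcaagatggca
Eif3m, chr3:111897167-111897196, minus strand: tggtaccgctcCTTTTCcggtcggcgtggt

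Total counts per library were 26928079, 26775456 and 26179769 in rcMSC and 21340290, 23030159 and 25170868 in rbMSC, so that 1 count was worth 0.0364 to 0.0468 CPM (counts scaled to library size, after TMM scaling). rcMSC replicate 3 stood apart. Its chi-square per degree of freedom over genes was 42.79 against rcMSC replicate 1 and 41.99 against replicate 2, while rcMSC replicates 1 and 2 gave 3.161 and the rbMSC pairs 2.693 to 2.919. Values without this library are therefore given beside the main ones for the whole set and for some of the genes. The stromal genes Col1a1, Col1a2, Vim, Thy1 and Cd44 were abundant in both groups. Of the 10 mesenchymal stem cell markers, Col1a1, Col1a2, Cd44 and Eng were called higher in rcMSC, and Thy1, Nt5e, Pdgfrb, Pdgfra and Itgb1 lower, with log2 fold changes between -1.12 (Thy1) and 0.88 (Eng). The macrophage genes Ptprc, Csf1r and Lyz2 were also detected in both. Summed over 17 monocyte and macrophage markers, CPM ran from 724.8 to 753.6 in rcMSC and from 1197.4 to 1197.7 in rbMSC, and over 15 proliferation markers from 259.4 to 262.5 and from 448.5 to 455.1. Of these lists, 11 of 16 macrophage genes tested and 11 of 15 proliferation genes were lower in rcMSC and 0 of either were higher, where 23.2% of all 14836 genes tested were lower and 22.6% higher (adjusted p under 0.05 in edgeR). Their part in the translation factor results was not tested. In bulk libraries, fewer cells of a type and less RNA per cell cannot be told apart.

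Translation factor mRNAs were mostly a little higher in rcMSC. Of the 51 genes, 50 passed the low-count filter. In edgeR's quasi-likelihood test over all genes, at an adjusted p under 0.05, 29 of the 50 were called higher in rcMSC, where 22.6% of all 14836 genes tested were, and 0 lower, where 23.2% were. At an unadjusted p under 0.05, 0 were lower as well; DESeq2 also called 0 lower and limma voom 2. All 3 rcMSC libraries lay above all 3 rbMSC libraries in 30 of the 50 (28.3% of all genes) and below them in 0 (28.8%). The differences were small. Of the 50 genes tested, 10 were called higher at 1.5-fold or more, where 10.7% of all genes tested were. Of these, 1, Eef1b2, reached 2-fold. The median log2 fold change was 0.27 over the 50 genes and 0.02 over all genes tested. Without rcMSC replicate 3 the median of the 50 was 0.33, with 31 called higher and 3 lower.

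**Figure D1:**
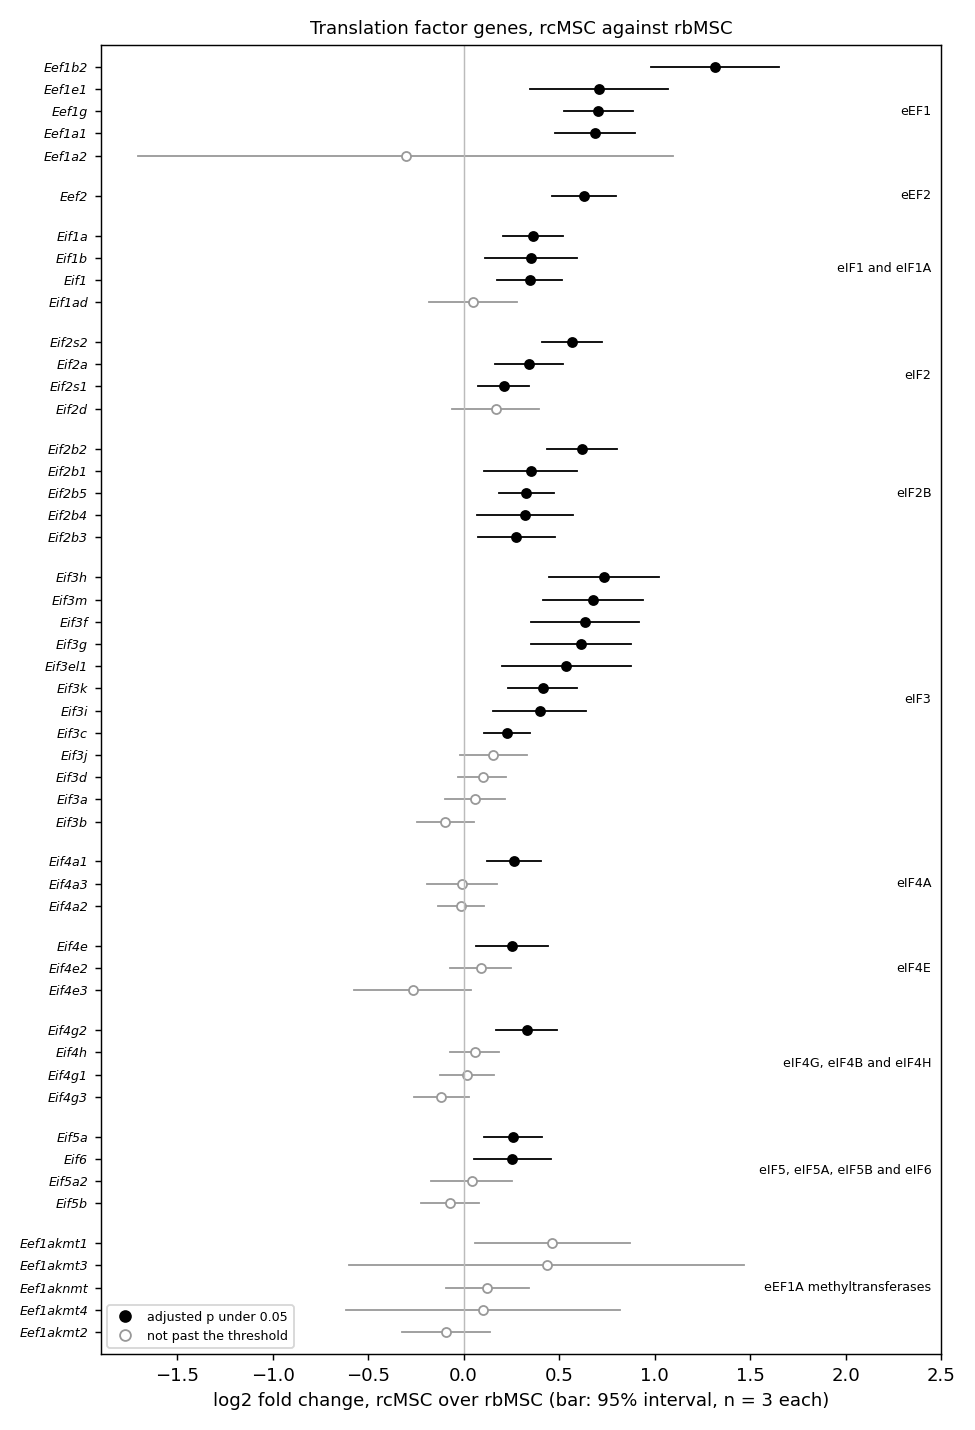
Log2 fold change of rcMSC over rbMSC (x axis) for each of the 50 translation factor genes tested, grouped by class and ordered by fold change within a class, with 95% intervals from the edgeR fit (n = 3 each). Filled points are past the adjusted p threshold of 0.05 and open points are not. Eef1b2 lies farthest to the right, and no filled point lies left of 0.

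The elongation factors differed most. Of the 6 genes of the eEF1 and eEF2 classes, 5 were called higher in rcMSC, where 22.6% of all genes were. The median log2 fold change of the 6 was 0.70. The classes were set by symbol, so the 5 include Eef1e1, an accessory protein of the tRNA synthetase complex. Summed over the 6 genes, the level was 6421.8, 6546.6 and 5182.8 CPM in the rcMSC libraries, against 3626.6, 3769 and 3710.6 CPM in the rbMSC libraries. All rcMSC sums were above all rbMSC sums, and rcMSC replicate 3 was the lowest of its group. The ratio of the group means was 1.63.

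Eef1b2 (ENSRNOG00000024186, mRatBN7.2 chromosome 9 from 64579893 to 64582737, plus strand) encodes the eEF1B subunit that exchanges GDP for GTP on eEF1A, and it showed the largest difference of the 50. Its level was 546.2, 527.1 and 363.9 CPM in rcMSC and 184, 190 and 202.4 CPM in rbMSC. The groups did not overlap, and rcMSC replicate 3 lay about midway between the other rcMSC libraries and rbMSC. The fold was 2.49, a log2 fold change of 1.32 (SE 0.15, 95% interval 0.98 to 1.65), or 1.48 without rcMSC replicate 3.

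Eef1a1 (ENSRNOG00000009439, chromosome 8 from 79341557 to 79344839, minus strand), the tRNA-delivering factor and one of the most abundant mRNAs of many cells, had 2603.2, 2605.8 and 2026.7 CPM in rcMSC and 1463.2, 1556.7 and 1472 CPM in rbMSC. Again every rcMSC library was higher, replicate 3 the least so. Its log2 fold change was 0.69 (SE 0.09), or 0.80 without rcMSC replicate 3. An unnamed gene annotated on the opposite strand covers 95.4% of the exon bases of Eef1a1, with 315 to 527 counts of its own in rcMSC and 230 to 376 in rbMSC. How reads in the shared bases were assigned is not given in the sources used here, so the level of Eef1a1 may be incomplete.

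Eef2 (ENSRNOG00000020266, chromosome 7 from 8533116 to 8559183, minus strand), the translocase, had 2427.2, 2524 and 2079.8 CPM in rcMSC and 1492.1, 1523.1 and 1520.6 CPM in rbMSC. The groups did not overlap, and the rbMSC libraries differed by far less than the rcMSC ones. Its log2 fold change was 0.63 (SE 0.08), or 0.71 without rcMSC replicate 3. Together Eef1a1 and Eef2 made up most of the elongation factor counts. Eef1a1 alone took 0.265%, 0.264% and 0.194% of all counts in the rcMSC libraries and 0.147%, 0.156% and 0.148% in the rbMSC libraries.

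Eef1g, the eEF1B subunit that anchors the exchange complex, had 834.5, 877.8 and 702.3 CPM in rcMSC and 481.4, 490.8 and 509 CPM in rbMSC (log2 fold change 0.71, SE 0.08). Eef1e1, an accessory protein of the tRNA synthetase complex in mammals, was far lower in level, with 10.2, 11.8 and 9.12 CPM in rcMSC and 5.52, 7.87 and 5.7 CPM in rbMSC (log2 fold change 0.71, SE 0.16). For both genes each rcMSC library was above each rbMSC library. Eef1a2, the form of eEF1A made in muscle and neurons, had few counts, with 11, 3 and 24 counts in rcMSC and 8, 12 and 22 in rbMSC. Its groups overlapped, and the 95% interval of its log2 fold change ran from -1.71 to 1.10.

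Per kilobase of exon, the eEF1B subunits Eef1b2 and Eef1g did not keep a fixed proportion. Eef1d was not analysed here. Eef1b2 stood at 1.05, 0.962 and 0.83 times Eef1g in rcMSC and at 0.612, 0.62 and 0.637 times in rbMSC. Every rcMSC ratio was above every rbMSC ratio. Eef1a1 stood at 2.08, 2.01 and 1.89 times Eef2 in rcMSC and at 1.91, 1.99 and 1.88 times in rbMSC, so the groups overlapped in that ratio.

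**Figure D2:**
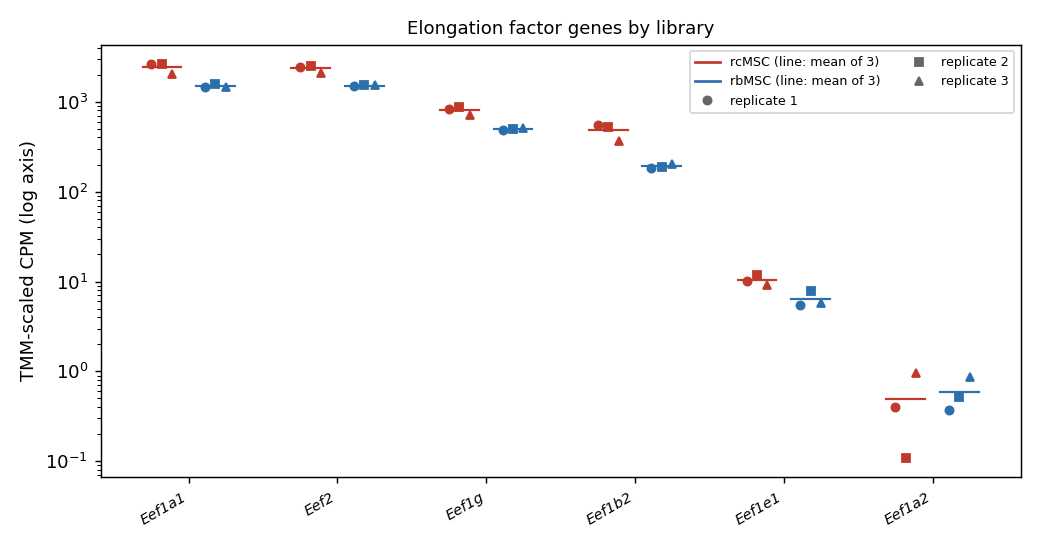
Level of the 6 elongation factor genes in each library, in TMM-scaled CPM on a log axis, with rcMSC in red and rbMSC in blue (symbols mark replicates, lines the mean of 3). In 5 of the 6 genes the rcMSC points sit above all rbMSC points, and in Eef1a2 they overlap.

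The eEF1A methyltransferases, which modify lysines or the amino terminus of eEF1A, have 5 genes here (Eef1akmt1, Eef1akmt2, Eef1akmt3, Eef1akmt4 and Eef1aknmt). Of these, 0 were called in either direction, where 22.6% of all genes were called higher and 23.2% lower. Depth limits Eef1akmt3 and Eef1akmt4, which had under 50 counts in every library. Of the 5 genes, 1, Eef1akmt1, had an unadjusted p under 0.05 in edgeR. The summed level of the 5 was 31.9, 30.9 and 33.3 CPM in rcMSC and 30.4, 28.7 and 30.5 CPM in rbMSC. Eef1akmt1 had 5.21, 3.87 and 5.44 CPM in rcMSC and 3.23, 3.33 and 3.92 CPM in rbMSC (log2 fold change 0.47, SE 0.18), and was called only when rcMSC replicate 2 was left out. In Eef1akmt2, 77.8% of the exon bases are shared with Fam53b on the same strand.

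Among the 39 initiation factor genes tested, 24 were called higher and 0 lower, with a median log2 fold change of 0.26. Summed over all Eif genes, the level was 6182.3, 6229.3 and 5966.6 CPM in rcMSC and 5284.4, 5294.4 and 5334.5 CPM in rbMSC, a ratio of means of 1.15. Genes of eIF2B (5 of 5 called higher), eIF3 (8 of 12), the eIF1 class (3 of 4) and the eIF2 class (3 of 4) made up most of the calls, and the eIF4 classes gave 3 of 10, where 22.6% of all genes were called higher. Differences between the classes were not tested.

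Both eIF2 subunits tested were higher in rcMSC. Eif2s2, the beta subunit, had 140.3, 142.5 and 121.4 CPM in rcMSC and 93.2, 88.3 and 91.1 CPM in rbMSC, with no overlap (log2 fold change 0.57, SE 0.07). Eif2s1, the alpha subunit whose phosphorylation shuts down initiation, had 71.7, 73.2 and 69.3 CPM in rcMSC and 60.1, 64.8 and 60.5 CPM in rbMSC, also with no overlap but with a smaller difference (0.21, SE 0.06). The call of Eif2s1 was lost without rcMSC replicate 2, rbMSC replicate 1 or rbMSC replicate 3 and with the gene length trend removed, where its value was 0.06. Eif2a and Eif2d are not eIF2 subunits but separate proteins that can bring initiator tRNA to the ribosome. Eif2a was higher (0.34, SE 0.08), and Eif2d was not called (0.17, SE 0.10). The gamma subunit Eif2s3 was not analysed here, and its Y-linked copy Eif2s3y was the 1 gene that did not pass the filter, with 1 count in rcMSC and 0 in rbMSC.

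All 5 eIF2B subunits, which form the exchange factor that reloads eIF2 with GTP, were called higher, and in each the 3 rcMSC libraries were above the 3 rbMSC libraries. Eif2b2, the beta subunit, differed most, with 39.8, 38.4 and 35.3 CPM in rcMSC and 24.5, 22.9 and 26.4 CPM in rbMSC (log2 fold change 0.62, SE 0.08). Eif2b5, the catalytic epsilon subunit, had 59.1, 63.3 and 57.4 CPM in rcMSC and 48.5, 47.5 and 47.2 CPM in rbMSC (0.33, SE 0.06). The alpha, gamma and delta subunits Eif2b1, Eif2b3 and Eif2b4 had log2 fold changes of 0.35, 0.28 and 0.32. Eif2b2 and Eif2b5 kept their calls with each library left out, and the other three lost theirs in 3 to 5 of the 6 cases. Eif2b4 was also not called under total count scaling, in DESeq2, with the replicate block or with the gene length trend removed, and Eif2b3 not with the replicate block. Eif2b3 was the only one of the 5 whose rcMSC replicate 3 value, 27.5 CPM, was the highest of its group.

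eIF3, the largest initiation factor, was split. Eif3h, Eif3m, Eif3f, Eif3g, Eif3el1, Eif3k, Eif3i and Eif3c were called higher, and Eif3a, Eif3b, Eif3d and Eif3j were not. Eif3h (ENSRNOG00000004252, chromosome 7 from 83091039 to 83174451, minus strand), a subunit with an MPN domain, had 114.3, 114.6 and 80.3 CPM in rcMSC and 62, 60.1 and 63.7 CPM in rbMSC. The groups did not overlap, and rcMSC replicate 3 lay nearer to rbMSC than the others did. The log2 fold change was 0.74 (SE 0.13), or 0.89 without rcMSC replicate 3.

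Eif3m, with a PCI domain, had 90.1, 94.8 and 68.1 CPM in rcMSC and 53.1, 49.5 and 55.8 CPM in rbMSC (log2 fold change 0.68, SE 0.12). Eif3f, the second MPN subunit, had 75.8, 80.7 and 55.5 CPM in rcMSC and 47.1, 44.2 and 45.1 CPM in rbMSC (0.64, SE 0.13). Eif3g, an RNA-binding subunit, had 34.4, 36.2 and 25.9 CPM in rcMSC and 21.4, 20.6 and 21.1 CPM in rbMSC (0.61, SE 0.12). All 3 genes showed the same order of rcMSC libraries, with rcMSC replicate 3 lowest in its group and still above rbMSC.

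Of the large subunits, Eif3a and Eif3b were not called, while Eif3c was called higher. Eif3a, the scaffold of the complex, had 375.3, 369.3 and 427.5 CPM in rcMSC and 393.2, 351.9 and 379.4 CPM in rbMSC, which overlapped (log2 fold change 0.06, 95% interval -0.10 to 0.22). Eif3b, which with Eif3g and Eif3i forms the module nearest the mRNA entry side, had 108.7, 114.7 and 127.9 CPM in rcMSC and 126, 126.3 and 123.3 CPM in rbMSC (-0.10, interval -0.25 to 0.05). In both, rcMSC replicate 3 was the highest of its group. Without it Eif3b was called lower, at -0.16, and Eif3a was at -0.01. With the gene length trend removed Eif3a was called higher, at 0.18. Eif3c, the other large scaffold, had 894.8, 914.2 and 957.5 CPM in rcMSC and 795.3, 790.1 and 778.4 CPM in rbMSC, with no overlap (0.23, SE 0.05).

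In human eIF3 the PCI and MPN subunits a, c, e, f, h, k, l and m form the structural core. Of the 7 core genes with a row, counting Eif3el1 (annotated as like Eif3e, while Eif3e itself was not analysed here), 6 were called higher, with a median of 0.54. Of the 5 others, Eif3b, Eif3d, Eif3g, Eif3i and Eif3j, 2 were called higher, with a median of 0.16. Over all genes, 22.6% were called higher. All 3 rcMSC libraries lay above all 3 rbMSC libraries in 6 of the 7 and 4 of the 5 (28.3% of all genes). Without rcMSC replicate 3, 10 of the 12 eIF3 genes were called higher, Eif3d and Eif3j among them, and 1, Eif3b, lower. Which subunits were called thus depended on that library. The 2 subsets, core and others, were set up after the values were seen, and their difference was not tested. Per kilobase of exon, Eif3h stood at 1.27, 1.21 and 0.757 times Eif3b in rcMSC and at 0.593, 0.574 and 0.623 times in rbMSC. Of the rcMSC libraries, replicate 3 was the nearest to rbMSC in this ratio, so these subunits diverged more without it.

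**Figure D3:**
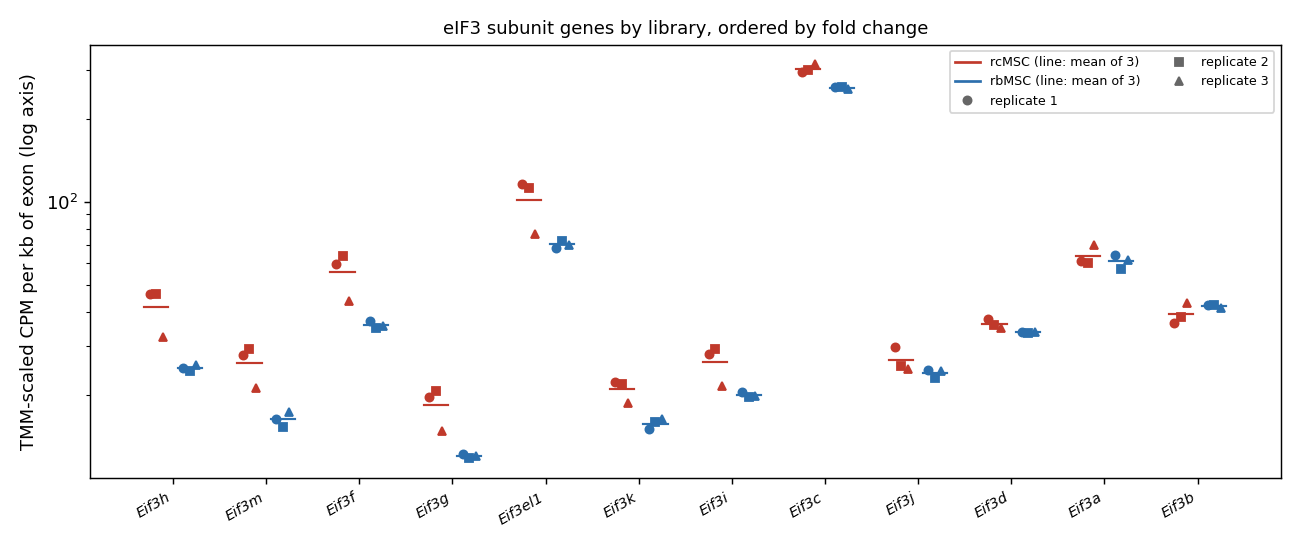
Level of the 12 eIF3 subunit genes in each library, in TMM-scaled CPM per kilobase of exon on a log axis, ordered from the largest to the smallest fold change (rcMSC red, rbMSC blue, symbols mark replicates, lines the mean of 3). rcMSC replicate 3 (triangles) lies above the other rcMSC libraries in Eif3c, Eif3a and Eif3b and below them in the remaining genes.

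For the factors that read the start codon, Eif1, which guards start codon choice, had 131.3, 132.7 and 109.3 CPM in rcMSC and 98.1, 99 and 96.8 CPM in rbMSC (log2 fold change 0.35, SE 0.08). Eif1a, which works with it, had 88.5, 84.5 and 75.4 CPM in rcMSC and 63.2, 66.7 and 63.1 CPM in rbMSC (0.37, SE 0.07). Eif1b, a close relative of Eif1, was also called higher (0.35, SE 0.11), and the call was lost in 4 of the 6 cases with 1 library left out (without rcMSC replicate 1 or 2 or rbMSC replicate 1 or 3). Eif1ad, which shares only a domain with eIF1A, had 13.6, 12 and 12.5 CPM in rcMSC and 13.2, 12.1 and 11.5 CPM in rbMSC, with overlap.

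In cap recognition, 3 of the 10 genes of the eIF4 classes were called. Eif4e, the cap-binding protein, had 89, 80.7 and 71.6 CPM in rcMSC and 65.5, 72.6 and 64.2 CPM in rbMSC. It was called higher (log2 fold change 0.26, SE 0.09) although 1 rcMSC library lay within the rbMSC range, and the call was lost in 4 of the 6 cases with 1 library left out (without rcMSC replicate 1 or 2 or rbMSC replicate 1 or 3) and under total count scaling. Its relatives Eif4e2 and Eif4e3 had log2 fold changes of 0.09 (SE 0.07) and -0.27 (SE 0.14) and were not called. Eif4e3 was called lower, at -0.31, without rcMSC replicate 3.

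Eif4a1, the main helicase, had 407, 416.5 and 363.6 CPM in rcMSC and 322.1, 334.1 and 331.7 CPM in rbMSC, with no overlap (log2 fold change 0.27, SE 0.06). Its near copy Eif4a2 had 176.4, 185 and 184.7 CPM in rcMSC and 178.4, 184.6 and 188.2 CPM in rbMSC, which overlapped (-0.01, 95% interval -0.13 to 0.11). Per kilobase, Eif4a2 stood at 0.185, 0.19 and 0.217 times Eif4a1 in rcMSC and at 0.237, 0.236 and 0.242 times in rbMSC, lower in each rcMSC library than in any rbMSC one. Eif4a3, which serves the exon junction complex and not initiation, was at -0.01 (interval -0.19 to 0.17).

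The scaffold Eif4g1 had 791.9, 826.4 and 912.6 CPM in rcMSC and 829.1, 827.3 and 846.4 CPM in rbMSC, which overlapped (log2 fold change 0.02, 95% interval -0.13 to 0.16). Eif4g2, a relative that lacks the eIF4E binding site and serves cap-independent initiation, had 1120.9, 1124.3 and 954.6 CPM in rcMSC and 825.7, 865 and 854.5 CPM in rbMSC, with no overlap (0.33, SE 0.07). Eif4g3 was not called (-0.12, SE 0.06), but was called lower without rcMSC replicate 3, at -0.17, and stood at 0.04 with the gene length trend removed. Eif4h, a helper of the helicase, was at 0.06 (SE 0.06). Eif4b was not analysed here.

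In the late steps of initiation, Eif5b, which joins the ribosomal subunits, had 117.2, 119.3 and 125.9 CPM in rcMSC and 137.6, 117.3 and 125.6 CPM in rbMSC, which overlapped (log2 fold change -0.07, SE 0.07). Eif6, which keeps the large subunit from joining too early, was higher (0.26, SE 0.09), a call lost without rcMSC replicate 1 or 2 or rbMSC replicate 1 or 2, under total count scaling, in DESeq2, with the replicate block and with the gene length trend removed. Eif5a, the hypusine-bearing factor that helps the ribosome through proline stretches, had 188.6, 182.1 and 199.6 CPM in rcMSC and 146.2, 169.4 and 161 CPM in rbMSC (0.26, SE 0.07), a call lost without rbMSC replicate 1 and with the gene length trend removed. Of its exon bases, 41% are shared with Gps2 on the opposite strand. Its relative Eif5a2 was at 0.04 (SE 0.10). Eif5 was not analysed here.

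**Figure D4:**
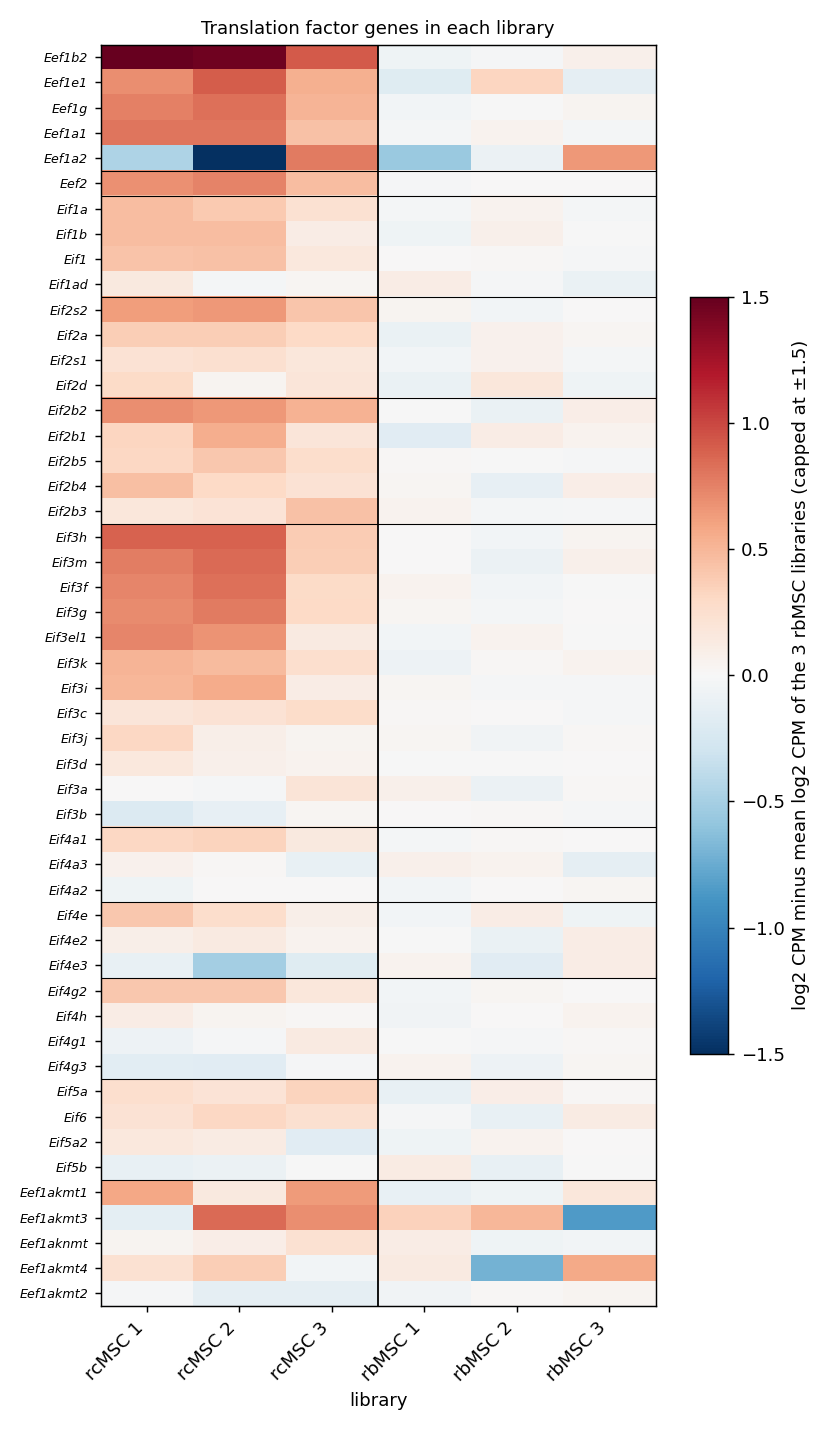
Each of the 50 genes tested (rows, in the same order as the plot of fold changes) in each library (columns, rcMSC left of the line), coloured by log2 CPM minus the mean log2 CPM of the 3 rbMSC libraries. The rcMSC columns are mostly red, and the third is paler in most rows of the elongation factor and eIF3 blocks.

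The pattern across libraries was shared by most of these genes. The median over the 50 genes of log2 CPM relative to the rbMSC mean was 0.31, 0.31 and 0.19 in rcMSC replicates 1 to 3, and between -0.01 and 0.01 in the rbMSC libraries. Over all genes tested, the same medians were all between 0.00 and 0.01. rcMSC replicate 3 was below both other rcMSC libraries in 32 of the 50 genes (64%), against 41.7% of all genes tested. The difference from rbMSC was thus present in each rcMSC library and smaller in the third.

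Gene length moved with the result. The 29 genes called higher had a median exon length of 1919 bases (1271 to 5050), and the 21 not called 2984 bases (999 to 9159). Across the 50 genes Spearman's rho between length and log2 fold change was -0.51, a description over genes measured in the same libraries. Over all genes, the median log2 fold change ran from 0.18 in the shortest of 4 equal length classes (up to 1851 bases) to -0.11 in the longest (above 4510 bases). In the longest class 2 of 11 translation factor genes were called higher, Eif4e and Eif4g2, against 11 of 15 in the shortest. Over all genes, 17.8% were called higher in the longest class and 28.6% in the shortest, so the share of translation factor genes called in the longest class was near that of all genes. The part of length in the result was not tested beyond the alternative that follows. With the length trend removed from each library, an alternative added after seeing the data, 27 were called higher and 0 lower, and the median was 0.24. Eef1b2, Eef1a1 and Eef2 were then at 1.203, 0.602 and 0.673.

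Genes that control these factors were taken from lists written with earlier results of these data known. Their counts stand beside 22.6% of all genes called higher and 23.2% called lower, and their medians beside the all-gene median of 0.02. Of 9 genes of the eIF2 kinase and phosphatase group, 4 were called higher and 3 lower, with a median log2 fold change of 0.12. Ppp1r15a, the stress-induced subunit of the eIF2 phosphatase, rose most (70.5 ± 5.83 CPM in the rcMSC libraries, against 49.8 ± 1.79 CPM in the rbMSC libraries, mean ± SD of 3, log2 fold change 0.50), and Eif2ak4 (GCN2), the kinase that senses uncharged tRNA, fell most (30.5 ± 2.23 CPM in rcMSC, against 39.2 ± 3.62 CPM in rbMSC, -0.36). Of 16 genes of the 4E-BP, mTOR and MNK group, 3 were called higher and 5 lower, with a median of 0.03, so that neither share was far from that of all genes. Eif4ebp1, an inhibitor of eIF4E, rose by 0.40 and Mknk2, a kinase of eIF4E, fell by 0.46 on the log2 scale. Larp1, the binding protein of the pyrimidine tract, had a log2 fold change of 0.24.

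Of 9 poly(A)-binding and accessory genes, 5 were called higher and 0 lower, with a median of 0.30, where 22.6% and 23.2% of all genes were called. Pabpc1, the poly(A)-binding protein, rose most, with 1901.4 ± 169.9 CPM in the rcMSC libraries, against 938.3 ± 23.7 CPM in the rbMSC libraries (mean ± SD of 3; log2 fold change 1.02). Of 11 elongation regulators (median 0.15) 1 was called, Eef2k, the kinase that inhibits eEF2, at 0.23, a smaller share than that of all genes. Of 5 termination genes (median -0.03) 1 was called, Pelo, a ribosome rescue factor, at -0.46, a share near that of all genes called lower. Of 9 mitochondrial translation factors 2 were called higher, Gfm1 (0.26) and Mtrf1 (0.50), a share near that of all genes, and their median was 0.19. Translation of the Atf4 mRNA rises when eIF2 is phosphorylated, and ATF4 then activates transcription of genes for amino acid supply and stress. In the list of Atf4 and such response genes, 11 of 12 genes were called higher and 0 lower, with a median of 0.76. Slc7a11, the cystine transporter, led it at 1.60, and Atf4 itself was at 0.68.

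**Figure D5:**
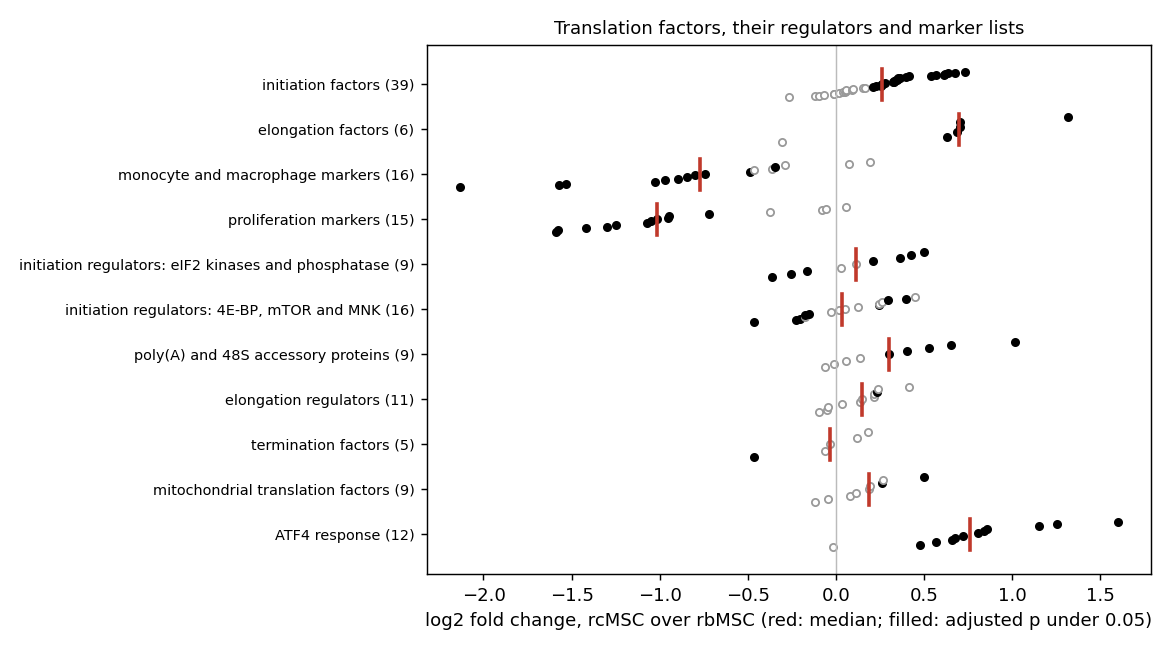
Log2 fold change of rcMSC over rbMSC (x axis) for every gene tested in the initiation factors, the elongation factors and the other lists (number tested in parentheses). The mesenchymal stem cell markers are not plotted. Red bars are medians, and filled points are past the adjusted p threshold of 0.05. The elongation factors and the ATF4 response list have the medians farthest to the right, at 0.70 and 0.76.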

How the data were processed

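RNA of 6 libraries was sequenced as paired reads of 150 nt. Trimming by the authors used Trim Galore 0.6.7 and also Trimmomatic 0.39, mapping to mRatBN7.2 used STAR 2.7.9a, and featureCounts 2.0.1 gave counts per gene, per the labels' protocols. The submitters' processing notes also name DESeq2 1.20.0. The deposited values are raw counts. No source used here gives the strand or multi-mapping setting, and 15 of the 51 genes share exon bases with another gene. Processed copies and near-identical paralogs could also have taken or given reads. Gene length is the deposited Length column.

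All genes were fitted with edgeR 4.0.16 (R 4.3.3; TMM, filterByExpr, robust quasi-likelihood F test, Benjamini-Hochberg adjustment over 14836 genes). SE is the log2 fold change divided by the root of F. As replicates may be repeat libraries of 1 culture, the spread behind each test may be technical. The fit was also run on simulated counts with a common dispersion and no outlying library. That run cannot show how the calls fare with a library like rcMSC replicate 3.

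Members and lists were chosen with earlier results of these data known. Named were each class's largest rise and fall, a fixed set of factors and genes under the filter; the remaining genes were added after their values were seen. Alternatives were other scalings and filters, DESeq2 1.42.0, limma 3.58.1 voom, non-robust dispersions, a replicate block, each library left out and, added after seeing the data, removal of the gene length trend.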

Additional observations from a re-analysis of the deposited data

How the results depend on the processing

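The number of translation factor genes called higher was 29, with 26 to 30 under other scalings, filters and tools. It was 26 with the replicate number as a block (replicate block), although same-numbered libraries did not deviate together (correlations -0.0275, 0.018 and -0.0518), 27 with the length trend removed and 21 to 31 with 1 library left out. The number called lower was 0 except with limma voom (2, Eif3b and Eif4g3) and without rcMSC replicate 3 (3, with Eif4e3), so the range with 1 library left out was 0 to 3. The median log2 fold change ranged from 0.25 to 0.33 with 1 library left out. Of the 29 genes called, 0 had a negative value under any alternative, 19 calls were kept under every alternative, and 10 were lost with at least 1 library left out. Those were Eif1b, Eif2s1, Eif2b1, Eif2b3, Eif2b4, Eif3el1 (without rcMSC replicate 2), Eif3i, Eif4e, Eif5a and Eif6. The replicate block ended the calls of Eif2b3, Eif2b4 and Eif6. Depth limits Eef1a2, Eef1akmt3, Eef1akmt4 and Eif2s3y, which had under 50 counts in every library.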
